A study of Mus musculus with 36 samples.

Results

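The Zfp900 to Zfp999 genes are 62 of the 21442 genes in the count table, chosen as every gene whose symbol is Zfp followed by a 3-digit number that starts with 9, with no use of their expression. The symbols are names given in series to mouse zinc finger genes with no simple counterpart in other mammals, so the set was drawn by name and not by function. RNA was counted in 36 libraries, 3 for each of 12 combinations of stage and genotype. Cells were taken as mouse embryonic fibroblasts (MEFs), at days 3, 5 and 7 of reprogramming (D3, D5 and D7), as induced pluripotent stem cells (iPSCs) and as embryonic stem cells (ESCs), each as wild type (WT) and Zfp266 knockout (KO).

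The MEFs came from mid-gestation chimeric embryos, made by morula aggregation with an ESC line. That line carried Cas9, GFP and puromycin resistance under the control of Nanog, and the reprogramming factors Myc, Klf4, Oct4 and Sox2 (MKOS) joined to mOrange and switched on by doxycycline. MEFs, reprogramming cells and iPSCs are labelled strain 129, and the ESC line they derive from has a 129 background by the study's account, the ESC samples carrying no strain label. The host embryos for aggregation came from B6CBAF1 females, and the share of host cells in the MEF libraries is not stated. WT MEFs received a lentivirus with a non-targeting guide RNA and KO MEFs one with a Zfp266 guide RNA, and both were harvested 96 h after transduction, unsorted. For reprogramming, MEFs from the chimeras were first mixed with WT 129 MEFs, and the mixture was then transduced with the same guide RNAs. It was kept in doxycycline at 300 ng/ml with vitamin C at 10 µg/ml, and mOrange+ cells were sorted at D3, D5 and D7. A KO library from MEFs or reprogramming cells is therefore a population of edited cells. The iPSCs were 3 clones per genotype that were Nanog-GFP+ and selected with puromycin. The WT ESCs were 3 samples of the parental line, and the KO ESCs were 3 genotyped clones of it. The WT ESC spread is therefore not a spread between clones, and although the study calls the reprogramming samples independent, the sources used here do not say which steps (transduction, culture) were separate for MEFs and reprogramming cells, so p-values measure only the spread between these samples.

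Most genes of this kind encode proteins with a KRAB domain and an array of C2H2 zinc fingers. The fingers bind DNA, often within retrotransposons, and the KRAB domain recruits the corepressor TRIM28 (KAP1), which brings the histone methyltransferase SETDB1 and H3K9me3, so that the bound sequence is silenced. Such genes lie in tandem clusters that grow by duplication, and neighbouring genes can be nearly identical. Zfp266, the gene targeted in this study, is itself a KRAB zinc finger gene, on chromosome 9 and outside the set.

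Libraries held 19224103 to 39610939 counts, and all 62 members had counts. Zfp266 transcripts were still counted in all KO groups, and their level alone does not show whether the gene was edited. Zfp266 in KO against WT changed by 0.32 on the log2 scale at D3 (SE 0.076, FDR 0.0088) and by -0.39 in iPSCs (SE 0.075, FDR 9.9e-06), and the other 4 stages did not pass the test. Fibroblast markers (8 genes) summed to 280599 to 365990 normalised counts in MEFs and to at most 255 in iPSCs and ESCs, and pluripotency markers (8 genes) to at most 38.3 in MEFs and at least 99567 in iPSCs and ESCs. At D7 all 8 pluripotency markers were higher in KO cells (sums 25395 to 32988 against 5458 to 9428 in WT), 5 of 8 fibroblast markers were lower (5639 to 15458 against 17893 to 25145), and 2 of 3 keratinocyte markers were lower (2623 to 4324 against 4503 to 9991). One WT iPSC clone (replicate 2) had almost none of the two-cell-like markers (2.58 normalised counts over 5 genes, against 757 and 811 in the other clones), and one KO iPSC clone (replicate 1) had 1172 normalised counts of 4 primitive endoderm markers against 138 and 142 in the others. Two-cell-like markers were also higher in KO than in WT libraries of iPSCs (1818 to 3305, with 2 of 5 genes called) and of ESCs (1671 to 2602 against 832 to 1224, with none of 5 called). One KO MEF library (replicate 3) stood apart, as it differed from the other KO MEF libraries by a chi-square per gene of 99.2 and 103, against 4.38 between those, and had 10.6 normalised counts of 4 epithelial markers against 172 and 106 and 721 of 4 endothelial markers against 363 and 342. By the same measure D3 WT replicate 2 (47.6 and 38 against 8.52) and D7 WT replicate 1 (44 and 42.3 against 6.02) stood apart from their groups. Macrophage and endothelial markers summed to at most 782 normalised counts in any library.

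In the GRCm38 annotation, 43 members lie in 5 clusters in which neighbouring members are less than 1 Mb apart, and 19 lie alone. The largest, on chromosome 4 from 145510759 to 147848366, has 16 members and holds, in order, Zfp990, Zfp980, Zfp986, Zfp987, Zfp992, Zfp981, Zfp993, Zfp989, Zfp991, Zfp988, Zfp978, Zfp982, Zfp985, Zfp979, Zfp984 and Zfp933, among 62 genes of the table. Clusters of 10 members lie on chromosome 2 (175372436 to 178078476) and chromosome 17 (21567008 to 22867134). A cluster of 4 (Zfp977, Zfp976, Zfp975 and Zfp936) lies on chromosome 7, from 42579783 to 43192109, and one of 3 (Zfp930, Zfp964 and Zfp963) on chromosome 8, from 69209038 to 69749970. Zfp939 is annotated as a transcribed pseudogene, and the longest annotated protein of the other 61 members held a median of 11 C2H2 finger matches, from 0 in Zfp972 and 2 in Zfp993 to 21 in Zfp974. The same proteins were searched for a KRAB box. On chromosome 4 only Zfp982 and Zfp933 had a match, and members elsewhere had matches in part. The search used a fixed pattern, so a missing match does not show that the box is absent.

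The libraries were read as single 75-base reads, and the way reads with several matches were counted is not stated. Of the 75-base windows of their transcripts, chromosome 2 members shared at least 12.6% with another gene, and both Zfp967 and Zfp969 had no window of their own. On chromosome 4 the share ran from 0 in Zfp933, 4.4% in Zfp985 and 4.9% in Zfp982 to 81.7% in Zfp987. Zfp960 shared 75.3%, nearly all of it with Zfp97. In all, 22 members shared 25% or more, and how the counts of these genes divide between copies is uncertain.

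Promoter sequences make the kinship of the chromosome 4 genes visible. RefSeq (GRCm38.p6) gave a 300-base window around the start for 52 of the 62 members. Between the chromosome 4 members whose RefSeq and GENCODE starts lie within 100 bases of each other, leaving out Zfp933, the windows were 70.0% to 91.3% identical (median 84.7% over 21 pairs). Pairs with Zfp933 were 57.3% to 59.3% identical, close to the median of 59.9% between members outside clusters. Such likeness was not particular to chromosome 4. The median was 87.0% over 36 pairs in the chromosome 2 cluster and 76.3% over 3 pairs in the chromosome 7 cluster. It was 59.1% over 36 pairs in the chromosome 17 cluster and 62.7% for the 1 pair in the chromosome 8 cluster. The 6 chromosome 4 members that were higher in KO cells at D7 and have such a window were searched for their longest common run, which was of 21 bases, AAGAACTGGGAAGCTAATTAA, and began 120 to 157 bases before the start. Of 32851 windows in the table, 9 held the run on either strand, all of them within the cluster, the other 3 being those of Rex2, Zfp534 and Zfp600. The 250 bases before the RefSeq start are shown 5′ to 3′ on the gene's strand for 3 of the 6 (Zfp980 for its level, Zfp982 and Zfp985 for their few shared windows), for Zfp933 from the same cluster, and for Zfp961 from chromosome 8, with the shared run in capitals.
Zfp980 (chr4:145670447-145670696, plus strand): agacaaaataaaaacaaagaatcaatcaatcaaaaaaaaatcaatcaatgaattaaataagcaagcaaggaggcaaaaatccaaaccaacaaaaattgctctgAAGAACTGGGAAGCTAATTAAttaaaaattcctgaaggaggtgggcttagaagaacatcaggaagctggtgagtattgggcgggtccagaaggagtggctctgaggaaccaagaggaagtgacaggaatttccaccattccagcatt
Zfp982 (chr4:147492167-147492416, plus strand): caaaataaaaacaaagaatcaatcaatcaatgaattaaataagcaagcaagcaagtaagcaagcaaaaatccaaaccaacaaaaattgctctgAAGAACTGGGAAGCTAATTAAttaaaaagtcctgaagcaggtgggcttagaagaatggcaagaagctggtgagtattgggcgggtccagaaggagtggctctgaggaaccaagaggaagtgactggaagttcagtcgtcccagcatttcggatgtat
Zfp985 (chr4:147553027-147553276, plus strand): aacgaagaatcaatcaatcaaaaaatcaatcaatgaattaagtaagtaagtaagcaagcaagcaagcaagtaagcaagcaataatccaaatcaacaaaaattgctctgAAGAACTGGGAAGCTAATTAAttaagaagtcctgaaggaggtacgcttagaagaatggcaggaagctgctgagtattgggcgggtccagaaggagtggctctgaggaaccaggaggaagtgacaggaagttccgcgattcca
Zfp933 (chr4:147848419-147848668, minus strand): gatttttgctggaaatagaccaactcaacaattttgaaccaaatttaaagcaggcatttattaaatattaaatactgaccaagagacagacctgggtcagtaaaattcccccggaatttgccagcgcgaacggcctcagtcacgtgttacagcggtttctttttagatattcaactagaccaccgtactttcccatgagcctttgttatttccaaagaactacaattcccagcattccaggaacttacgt
Zfp961 (chr8:71950816-71951065, plus strand): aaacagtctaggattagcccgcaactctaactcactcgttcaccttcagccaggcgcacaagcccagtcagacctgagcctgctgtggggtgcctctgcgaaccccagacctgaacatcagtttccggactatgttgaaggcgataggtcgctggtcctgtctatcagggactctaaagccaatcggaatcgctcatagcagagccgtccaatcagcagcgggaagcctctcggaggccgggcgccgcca

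Of 3 motifs searched on both strands of the 300-base windows, the octamer ATGCAAAT was in 1 of 52 member windows and 1.7% of all windows, and in none of 10 on chromosome 4. The SOX core ACAAAG was in 11 of 52 and 18.7% of all, and in 6 of 10 on chromosome 4. The GC box core GGGCGNG was in 18 of 52 and 34.4% of all, and in 8 of 10 on chromosome 4. The chromosome 4 windows resemble one another, by the identities above, so their matches are not independent and no enrichment was tested. Of these 10 windows, 8 have RefSeq and GENCODE starts within 100 bases of each other. None of the motifs contains another, and these are matches of letters only.

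The first question was where the genes are active on the way from fibroblasts to pluripotent cells. The members together took a mean of 0.0287% of all normalised counts in WT MEFs, 0.0495% at D3, 0.0551% at D7, 0.411% in WT iPSCs and 0.410% in WT ESCs. The chromosome 4 cluster accounted for 22.9% of the member counts in WT MEFs, 43.3% at D3, 36.3% at D7, 80.5% in iPSCs and 81.5% in ESCs. Of the 62 members, 48 had their highest WT mean in iPSCs or ESCs, 9 at D3, D5 or D7 and 5 in MEFs.

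**Figure D1:**
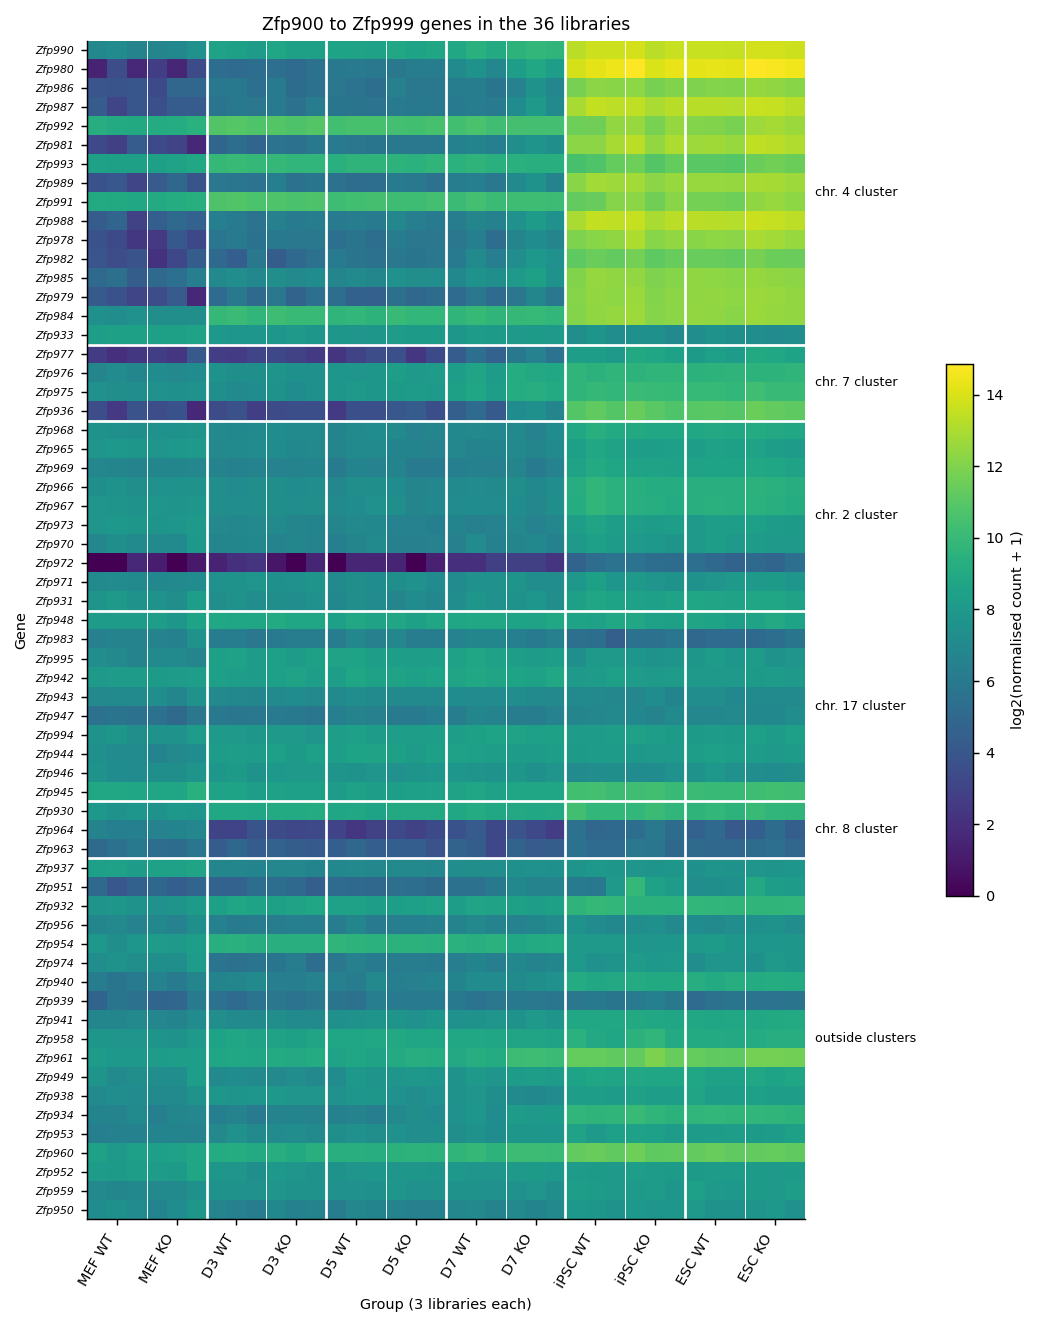
Level of each of the 62 genes (rows, by cluster) in each of the 36 libraries (columns, 3 per group), as log2 of the normalised count plus 1 on the colour scale. Of the 16 genes of the chromosome 4 cluster, 15 brighten in iPSCs and ESCs, where the cluster held 80.5% and 81.5% of the WT member counts, and only Zfp933 does not.

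In WT ESCs against WT MEFs, 51 members were higher and 4 lower at FDR < 0.05, where 79.3% of all genes tested passed the test in either direction (40% higher and 39.4% lower). With log2FC > |1| as well, the definition of a DEG here, 40 were higher and 2 lower (26% and 29.4% of all genes). The median log2FC was 1.70 over the members, 0.30 over 322 other numbered Zfp genes, of which 158 were higher and 101 lower, and 0.05 over all genes. With TMM scaling the median over all genes was 0.163, and changes here should be read against that shift.

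The 6 largest increases were all on chromosome 4. Zfp980, the largest, had 1.74, 10.6 and 2.12 normalised counts in the WT MEF libraries, which were 1, 7 and 2 reads, and 19709, 19934 and 19083 in WT ESCs. The log2FC of 12.05 (SE 0.50, FDR 1.4e-128) thus rests on 10 reads on the MEF side. Zfp987 rose by a log2FC of 9.45 (SE 0.32), from 7.57 to 19.1 normalised counts in MEFs to 9319 to 9820 in ESCs. The others were Zfp978 (9.30, SE 0.40), Zfp988 (9.21, SE 0.31), Zfp989 (9.06, SE 0.35) and Zfp981 (9.05, SE 0.34), with 17 to 35 reads over the 3 MEF libraries. Each had an FDR of 1.75e-117 or less in the DESeq2 test, and no MEF library came near an ESC library.

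The 2 DEGs that fell were Zfp964 and Zfp983. Zfp964, in the chromosome 8 cluster, had 101, 83.3 and 84.9 normalised counts in WT MEFs and 24.1, 33.4 and 16.5 in WT ESCs (log2FC -1.87, SE 0.31, FDR 3.9e-09). It was lowest between these stages, with 4.13 to 6.80 at D5. Zfp983, in the chromosome 17 cluster, fell from 88.7 to 99.96 in MEFs to 30.1 to 35.6 in ESCs (log2FC -1.51, SE 0.28, FDR 1.8e-07). Zfp933 and Zfp937 also fell, with log2FC of -0.97 and -0.81.

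Clusters differed in this comparison, in which 40% of all genes were higher and 39.4% lower. On chromosome 4, 15 of 16 rose, with a median log2FC of 7.96, and Zfp933, at the end of the cluster and the member with no shared window, fell. All 4 chromosome 7 genes rose (median 4.43), led by Zfp936 (7.75, SE 0.37) and Zfp977 (6.17, SE 0.53). All 10 on chromosome 2 rose as well, with a median of 1.21. On chromosome 17, 7 of 10 rose and 1 fell (median 0.46). The 46 genes within the chromosome 4 span that are not members moved with it, as 42 were higher and 1 lower (median 2.06).

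Per kilobase of exon, averaged over the 6 WT stages, the highest levels were those of Zfp980 (1618 normalised counts per kb), Zfp978 (1281) and Zfp990 (1246), and the lowest those of Zfp964 (3.92), Zfp963 (13.4) and Zfp950 (14.04). No member averaged under 5 normalised counts over all libraries. Zfp972 on chromosome 2 came nearest, at a mean of 13.7 with no read in 6 libraries, and 56 members averaged at least 100.

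The changes came in steps. From WT MEFs to D3, 33 members rose and 13 fell, where 70.9% of genes passed the test (33.8% higher and 37.1% lower), and on chromosome 4 again 15 rose (median log2FC 1.92) and Zfp933 fell. Zfp980 rose from the counts above to 35.0 to 40.3 normalised counts. Over the other 46 members 18 rose and 12 fell, among them Zfp974 (-1.74) and Zfp937 (-1.61), and the median was 0.08. The 322 other Zfp genes had a median of -0.53 at this step, with 66 higher and 187 lower.

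Between D3 and D5, 8 members rose and none fell (25.7% of all genes passed, 12.6% higher and 13% lower), with log2FC from 0.26 in Zfp954 to 0.90 in Zfp981. Without D5 WT replicate 2 the count was 4 (21.8% of all genes), and without D3 WT replicate 3 it was 5 (23.6%). Between D5 and D7, 14 rose and none fell (24.7% of all genes passed, 13.8% higher and 10.9% lower), led by Zfp977 (2.02, SE 0.42), Zfp936 (1.45, SE 0.38), Zfp980 (1.19, SE 0.23) and Zfp934 (1.03, SE 0.16). Without D7 WT replicate 2 only 7 did (18% of all genes passed).

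The main increase came between D7 and iPSCs, in which 49 members rose and 7 fell, against 73.5% of all genes passing the test (35.8% higher and 37.7% lower). The chromosome 4 median was 5.47. Zfp987 went from 71.0, 77.5 and 71.0 normalised counts at D7 to 7797, 11317 and 10539 in WT iPSCs (log2FC 7.08, SE 0.20), and Zfp936 rose by 6.34 (SE 0.26). Zfp954, on chromosome 7 outside the cluster, ran the other way. It had 168 to 238 normalised counts in WT MEFs, 718 to 834 at D5, 672 to 708 at D7 and 247 to 259 in iPSCs (log2FC -1.45 from D7 to iPSCs, SE 0.09, FDR 1.0e-53).

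Between WT ESCs and WT iPSCs the DESeq2 test called no member and 3.2% of genes. At an unadjusted p under 0.05 there were 4 of 54 members, against 2475 of 12708 genes, and edgeR called none. Without iPSC WT replicate 3 there were 4 calls (11.8% of genes) and without replicate 2 there was 1 (4.36%). The median log2FC over the 54 members with an FDR was -0.02, from -0.34 to 0.40.

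The second question was what the loss of Zfp266 did to these genes. In MEFs no member differed between KO and WT in the DESeq2 test, where 0.086% of genes did. Of 58 members tested, 7 had an unadjusted p under 0.05, against 1340 of 13953 genes, and edgeR called none. Without MEF KO replicate 2 there was 1 call (0.849% of genes). The members took 0.0394% of normalised counts in MEF KO replicate 3, the library that stood apart, against 0.0286% and 0.0287% in the other KO libraries, and without it there was again no call. At D3 there was again none (0.493% of genes) and none by edgeR. There 3 of 61 members had an unadjusted p under 0.05, against 1020 of 16031 genes. At D5 3 members were higher in KO cells and none lower, where 7.15% of genes passed (4.72% higher and 2.43% lower).

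**Figure D2:**
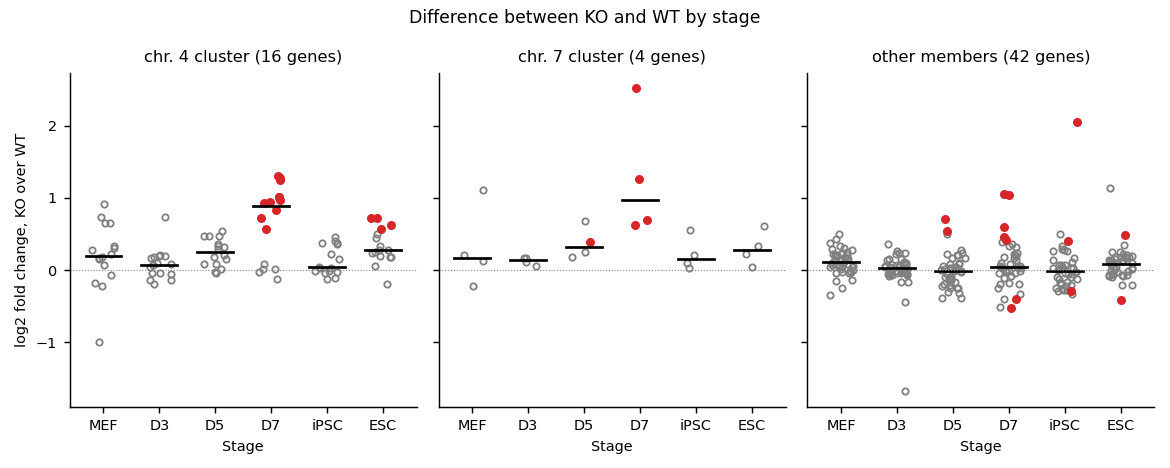
Log2 fold change of KO over WT (y axis) for each gene at the 6 stages (x axis), for the chromosome 4 cluster, the chromosome 7 cluster and the other 42 members. Filled red points have an FDR under 0.05, open points do not or have none, and black bars are medians. The D7 columns of the first 2 panels stand out, with 11 of 16 and 4 of 4 genes called (28.8% of all genes).

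At D5, Zfp934 on chromosome 13 had 90.3, 98.1 and 79.1 normalised counts in WT and 137, 158 and 141 in KO libraries (log2FC 0.70, SE 0.16, FDR 0.00071). Zfp961 on chromosome 8 had 380, 422 and 383 in WT and 536, 607 and 580 in KO (log2FC 0.54, SE 0.12, FDR 0.00035). Zfp976 rose by 0.39 (SE 0.12, FDR 0.016). All WT libraries lay below all KO libraries for these 3 genes. The call for Zfp976 was lost with edgeR (FDR 0.052) and without D5 WT replicate 2, D5 KO replicate 1 or D5 KO replicate 3 (FDR 0.093, 0.107 and 0.068).

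At D7, 20 members were higher in KO cells and 2 lower, where 28.8% of all genes passed the test (13.1% higher and 15.7% lower). All 3 genes of D5 were among the 20. Of these, 11 lie on chromosome 4 and 4 on chromosome 7, and 9 of the 20 were DEGs, a class that held 3.9% of all genes tested in that direction. The median log2FC was 0.12 over the members and 0.11 over the 322 other Zfp genes, of which 79 were higher and 32 lower. All genes had a median of -0.04. Fewer cells of one state and less RNA per cell cannot be told apart in these bulk libraries. Pluripotency markers also rose and fibroblast and keratinocyte markers fell in the same KO libraries, by the sums given above, and their part in these differences was not tested.

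Within the chromosome 4 cluster the median was 0.88, and in 10 of 16 genes the KO libraries lay apart from the WT libraries, as in 46.7% of all genes. Zfp980 had 132, 194 and 114 normalised counts in WT and 311, 464 and 314 in KO libraries (log2FC 1.31, SE 0.21, FDR 2.4e-08). Zfp987 had 71.0, 77.5 and 71.0 in WT and 149, 250 and 132 in KO (log2FC 1.28, SE 0.21, FDR 3.9e-08). Every KO value exceeded every WT value in both, and replicate 2 was the highest library in both genotypes.

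Zfp988 had 78.1, 109 and 90.5 in WT and 179, 294 and 183 in KO (log2FC 1.24, SE 0.22, FDR 5.7e-07). These 3 genes share 56.1% to 81.7% of their windows with other genes. Zfp982, which shares 4.9%, had 72.0, 129 and 82.3 in WT and 158, 237 and 179 in KO (log2FC 1.02, SE 0.26, FDR 0.00057). Zfp978 had 57.8, 83.6 and 38.1 in WT and 108, 148 and 105 in KO (log2FC 1.01, SE 0.24, FDR 0.00019). No library of one genotype reached the range of the other in any of these 5 DEGs.

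The other 6 that passed were Zfp986 (log2FC 0.97, FDR 0.00054), Zfp989 (0.95, FDR 0.00035), Zfp981 (0.93, FDR 0.00023), Zfp979 (0.83, FDR 0.017), Zfp985 (0.72, FDR 0.0033) and Zfp990 (0.57, FDR 0.0018). Zfp979 was the one whose KO and WT libraries overlapped. Its FDR was 0.091 without D7 WT replicate 1, 0.0995 without D7 WT replicate 3 and 0.255 without D7 KO replicate 2, and that of Zfp985 was 0.081 without D7 KO replicate 2.

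**Figure D3:**
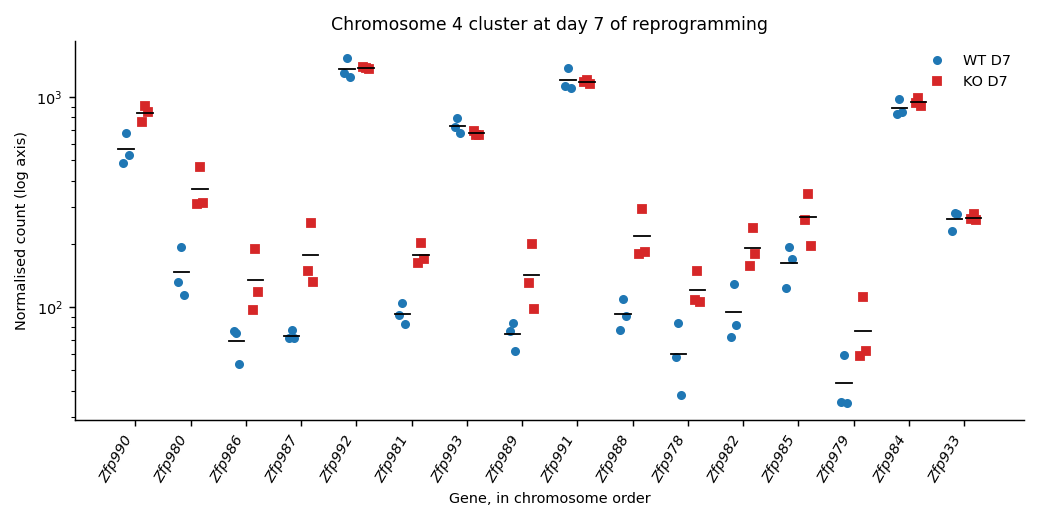
Normalised count (log axis) of the 16 genes of the chromosome 4 cluster, in chromosome order, in the 3 WT (circles) and 3 KO (squares) libraries at D7, with the group means as bars. The 11 genes that were higher in KO cells had WT means of 43.3 to 564, and the 5 others had WT means of 263 to 1364.

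The cluster held 5 genes that were not called at D7. Zfp992, Zfp993, Zfp991 and Zfp984 had WT means of 1364, 730, 1201 and 886 normalised counts and log2FC of 0.01, -0.12, -0.02 and 0.09. Zfp933 had a mean of 263 and a log2FC of 0.02. Zfp992, Zfp993 and Zfp991 had already been at 348 to 556 normalised counts in WT MEFs. Summed over the WT MEF libraries, the genes not called had 369 reads (Zfp984) to 1193 reads (Zfp992). The called genes of the cluster had 10 reads (Zfp980) to 258 reads (Zfp990). Whether the MEF level bears on the D7 difference was not tested. Neighbours did not sort by position, since Zfp992 and Zfp993 flank Zfp981, which was called.

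Called genes were found at low and at high shares of windows in common with other genes. The 6 genes with under 25% of windows shared had a median log2FC of 0.78, with 5 of 6 higher, and the 10 with 25% or more had 0.96, with 6 of 10 higher. Among the genes not called, Zfp992, Zfp984, Zfp991 and Zfp993 shared 34.5%, 40.9%, 75.9% and 78.7%, and only Zfp933 shared none. The part of shared reads in these differences was not tested. Of the 46 other genes in the span, 10 were higher and none lower (median 0.08), against 13.1% and 15.7% of all genes. Among them were Rex2 (1.38), Zfp600 (1.15) and Zfp534 (0.78), the 3 other genes with the promoter run, which were named after their values were seen. The run was sought only in members called at D7, so a link with the D7 difference cannot be read from it and was not tested. Zfp984 and Zfp933, which have such a window and were not called, do not hold the run. Zfp980 shares 46.6% of its windows with Rex2.

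**Figure D4:**
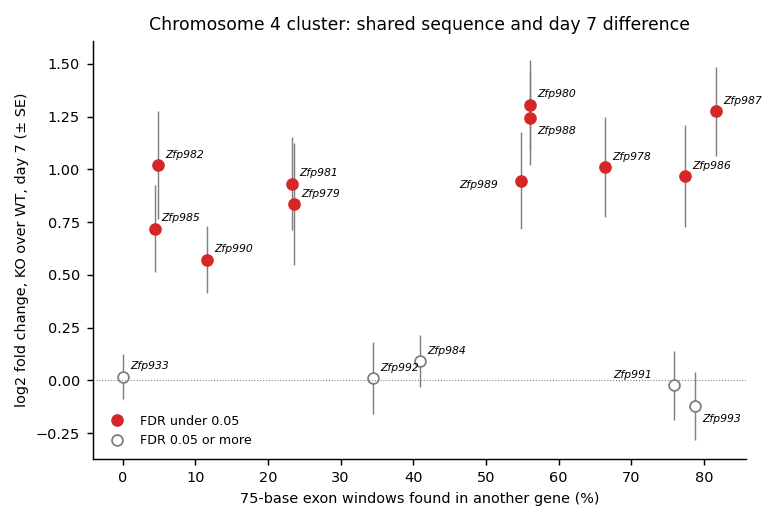
Share of 75-base transcript windows found in another gene (x axis, %) against the log2 fold change of KO over WT at D7 (y axis, with SE) for the 16 genes of the chromosome 4 cluster. Filled points have an FDR under 0.05. Zfp982 and Zfp985, with 4.9% and 4.4% of windows shared, lie among the called genes, as does Zfp987 with 81.7%. The genes not called lie at 34.5% (Zfp992) to 78.7% (Zfp993), apart from Zfp933 with no shared window.

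On chromosome 4 the D7 difference in normalised counts was small beside the distance to iPSCs. For the 11 chromosome 4 genes, the gap between the KO and WT means at D7 was 0.667% to 3.98% (median 1.3%) of the gap between WT D7 and WT iPSCs in normalised counts. Zfp980, for instance, had a mean of 147 in WT and 363 in KO at D7 and 19048 in WT iPSCs. For the 9 other genes that were higher at D7 the same share was 5.9% in Zfp936 to 72.5% in Zfp951 (median 30.7%). These shares depend on the scale, and shares on the log2 scale were not computed. As ratios to WT D7, Zfp980 stood at 2.47 in KO D7 and 129.8 in WT iPSCs. Zfp961 stood at 2.07 and 4.5. All these values share the WT D7 libraries and are descriptions.

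The chromosome 7 cluster was called as a whole at D7, where 13.1% of all genes were higher. Zfp936 (ENSMUSG00000064194, 43114229 to 43192109, plus strand, 6 merged exons) had the largest difference of any member, with 21.3, 36.3 and 17.5 normalised counts in WT and 151, 174 and 106 in KO libraries at D7 (log2FC 2.52, SE 0.26, FDR 3.6e-19). It had been at 4.85 to 11.5 in WT and 10.8 to 18.9 in KO cells at D5, and reached 1857 to 2367 in WT iPSCs. Zfp977 had 19.3, 42.3 and 24.7 in WT and 63.3, 93.7 and 49.0 in KO (log2FC 1.26, SE 0.29, FDR 0.00014). Zfp975 and Zfp976 rose by 0.70 (SE 0.11, FDR 4.2e-09) and 0.63 (SE 0.11, FDR 1.1e-07). In all 4 the KO libraries lay above the WT libraries (46.7% of all genes had libraries apart in either direction), and none shared more than 17.1% of its windows with another gene.

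Outside the clusters, Zfp961 (ENSMUSG00000052446, chromosome 8, 71951038 to 71993792, plus strand, 7 merged exons) had 498, 614 and 560 normalised counts in WT and 1171, 1186 and 1110 in KO libraries at D7 (log2FC 1.05, SE 0.12, FDR 1.0e-17). Exons of Cyp4f18 on the opposite strand overlap 4.2% of its exons, and whether the counting used the strand is not stated. Zfp951 on chromosome 5, with no shared window, had 46.7, 45.3 and 63.8 in WT and 124, 98.0 and 99.9 in KO (log2FC 1.05, SE 0.42, FDR 0.047). This call did not hold with edgeR (FDR 0.058) or with the replicate numbers as a block (FDR 0.068). It was also lost without D7 WT replicate 1 or 2 (FDR 0.121 and 0.131) and without D7 KO replicate 1, 2 or 3 (FDR 0.138, 0.076 and 0.072).

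Another 3 single genes were higher, namely Zfp934 (log2FC 0.60, FDR 0.00026), Zfp953 (0.45, FDR 0.0078) and Zfp960 (0.42, FDR 0.00056). Zfp953 had an FDR of 0.068 without D7 WT replicate 3. The 2 lower genes were Zfp938 (-0.52, SE 0.14, FDR 0.0015) and Zfp954 (-0.41, SE 0.09, FDR 3.0e-05). Zfp954 had 704, 672 and 708 normalised counts in WT and 468, 535 and 567 in KO libraries, which did not overlap. Zfp938 had 188, 212 and 168 in WT and 129.5, 119.9 and 145 in KO, the lowest mean of any group for that gene, although its highest mean was in WT ESCs.

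**Figure D5:**
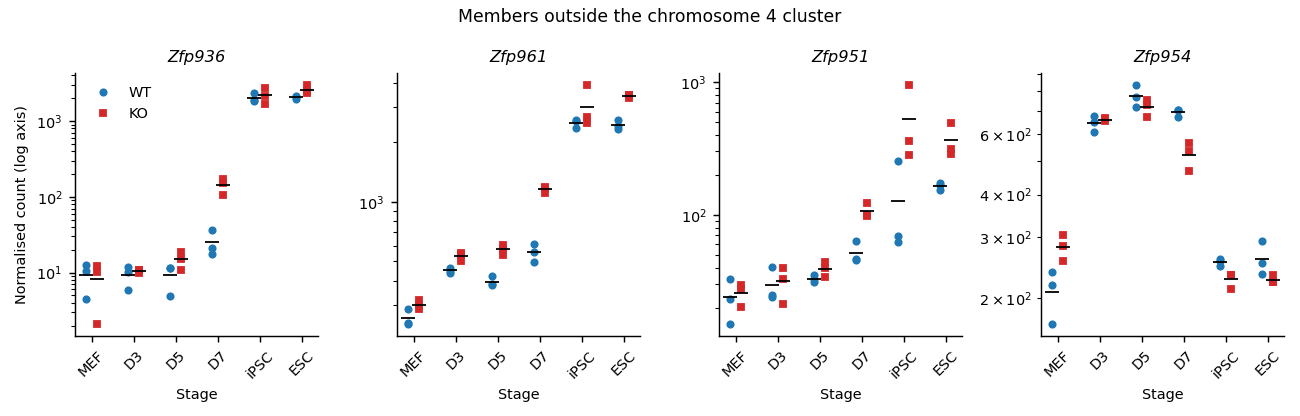
Normalised count (log axis, with its own range for each gene) of Zfp936, Zfp961, Zfp951 and Zfp954 in WT (circles) and KO (squares) libraries at the 6 stages, with the group means as short bars. At D7 the KO libraries lie above the WT libraries for the first 3 genes and below them for Zfp954.

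No member of the chromosome 2, chromosome 17 or chromosome 8 clusters was called at D7, where 28.8% of all genes were, with median log2FC of 0.04, -0.14 and -0.04. The chromosome 2 genes had risen in WT iPSCs against D7 in 10 of 10 cases (35.8% of all genes were higher).

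The difference between KO and WT at D7 was tested against that at D3. In all, 10 members had a larger difference at D7 and 2 a more negative one, where 13.4% of all genes passed (6.03% and 7.4%). They were Zfp936 (2.35, SE 0.49), Zfp980 (1.23, SE 0.34), Zfp982 (1.21, SE 0.40), Zfp986 (1.11, SE 0.36), Zfp987 (1.08, SE 0.31), Zfp988 (1.03, SE 0.33), Zfp961 (0.81, SE 0.17), Zfp940 (0.76, SE 0.23), Zfp976 (0.57, SE 0.16), Zfp975 (0.53, SE 0.17), Zfp954 (-0.44, SE 0.12) and Zfp938 (-0.53, SE 0.19). Without D7 KO replicate 2 there were 6 (8.84% of all genes), and with edgeR 7 (6.86%). The call for Zfp938 was lost in 14 of 18 alternatives. Zfp980, Zfp936 and Zfp961 kept the call under each of the 18 alternatives.

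In iPSCs, 2 members were higher in KO clones and 1 lower, where 16.3% of all genes passed (9.72% higher and 6.63% lower). Zfp951 had 69.1, 62 and 253 normalised counts in the WT clones and 947, 358 and 284 in the KO clones (log2FC 2.05, SE 0.41, FDR 2.4e-05). The clones did not overlap, but WT replicate 3 lay close to the lowest KO clone, and with the iPSC libraries fitted alone the FDR was 0.167. Zfp958 had 713, 504 and 420 in WT and 747, 864 and 549 in KO, which overlap (log2FC 0.40, SE 0.14, FDR 0.035), and Zfp932, which is known to silence endogenous retroviruses, had 805, 942 and 922 in WT and 721, 732 and 727 in KO (log2FC -0.29, SE 0.10, FDR 0.026). Zfp958 lost the call in 6 of 12 alternatives, with edgeR, with the iPSC libraries alone and without WT replicate 2 or 3 or KO replicate 1 or 2 (FDR 0.0562 to 0.521). Zfp932 lost it in 8 of 12, with edgeR, with the iPSC libraries alone, with the replicate block and without WT replicate 2 or 3 or any KO replicate (FDR 0.0541 to 0.198).

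The primitive endoderm markers of KO replicate 1 and the two-cell-like markers, which were lowest in WT replicate 2 and higher in every KO clone than in any WT clone, moved beside these differences by the sums given above, and their part in them was not tested. The iPSC count depended on single clones. It was 7 without WT replicate 1 (20.2% of all genes) and 1 without WT replicate 2 (11.6%). It was 5 without WT replicate 3 (16.5%) and 5 without KO replicate 2 (18.8%). Clones varied in a group of neighbours, as Zfp992, Zfp981, Zfp993 and Zfp991 were highest in WT replicate 3, with 5554, 7744, 2620 and 4559 normalised counts against 3147, 4916, 1746 and 2752 in the next clone. Of 56 members with a mean of at least 100, 9 varied by more than 1.5-fold between the 3 WT iPSC clones, as did 25.4% of all such genes, and none did between the 3 WT ESC samples (5.84% of all).

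In ESCs, 5 members were higher in KO clones and 1 lower, where 9.86% of all genes passed (5.69% higher and 4.17% lower). Zfp992 had 4350, 4214 and 3664 normalised counts in WT samples and 6598, 7403 and 6259 in KO clones (log2FC 0.73, SE 0.17, FDR 0.00076). Zfp991 had 3491, 3473 and 3076 in WT and 5426, 6073 and 5090 in KO (log2FC 0.72, SE 0.16, FDR 0.00041). These 2 genes and Zfp993 (0.57, SE 0.15, FDR 0.0061), which were not called at D7, share 34.5%, 75.9% and 78.7% of their windows with other genes, in the order Zfp992, Zfp991 and Zfp993. Zfp981 (0.63, SE 0.19, FDR 0.019) was the only chromosome 4 gene called both at D7 and in ESCs.

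Zfp961 was the other higher gene, with 2589, 2432 and 2342 in WT and 3488, 3461 and 3342 in KO (log2FC 0.48, SE 0.11, FDR 0.00052), and with D5 and D7 this made 3 stages at which it was called. Zfp951, called in iPSCs, had 155, 168 and 173 in WT samples and 491, 312.5 and 289 in KO clones of ESCs, which did not overlap, and an FDR just above the threshold (log2FC 1.14, SE 0.41, FDR 0.0502). Zfp946 was lower (-0.42, SE 0.15, FDR 0.049), and its call was lost in 9 of 12 alternatives. The number of calls was 3 without ESC KO replicate 2 (5.8% of all genes) and 16 with the ESC libraries fitted alone (15.2%). Zfp981 lost the call without ESC WT replicate 1 or 3 or ESC KO replicate 1 or 2 (FDR 0.064 to 0.099), and Zfp993 without ESC KO replicate 2 (FDR 0.062).

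Two-cell-like markers were higher in the KO ESC clones as well, by the sums given above, and their part was not tested. Although only 4 chromosome 4 genes were called in ESCs, the KO clones and WT samples lay apart in 15 of the 16, as in 33% of all genes. The summed normalised counts of the cluster were 96513 to 103193 in WT samples and 117500 to 139276 in KO clones. Over the same genes the sums in iPSCs overlapped, at 80900 to 113603 in WT and 85621 to 134235 in KO clones. The difference between KO effects in iPSCs and in ESCs was tested, and the DESeq2 test called no member (1.53% of all genes). At an unadjusted p under 0.05 there were 3 of 61 members, against 2035 of 16031 genes, and edgeR called none. Leaving out iPSC WT replicate 3 or iPSC KO replicate 2 gave 1 call (3.54% and 2.58% of all genes).

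Across the 12 group means of log2(normalised count + 1), the chromosome 4 genes other than Zfp933 were alike, with Pearson r of 0.916 to 0.9997 (median 0.989 over 105 pairs). The most alike pair was Zfp987 and Zfp988, which share windows with each other. Pairs within the chromosome 7 cluster had r of 0.948 to 0.988, pairs on chromosome 2 a median of 0.924, and pairs on chromosome 17 r of -0.829 to 0.933. Pairs not in the same cluster were also alike in part, with a median r of 0.666 over 1501 pairs. These include pairs of a cluster gene with a gene outside clusters. Pairs of genes that both lie outside clusters had a median of 0.708. The 12 means share the same cells and libraries for all genes, and copies share reads, so these are descriptions.

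Genes that work with KRAB zinc finger proteins gave a comparison list of 21, among them Trim28, Setdb1, the heterochromatin proteins Cbx1, Cbx3 and Cbx5, and members of the HUSH complex. In WT ESCs against WT MEFs, 15 were higher and 5 lower (40% and 39.4% of all genes). In KO against WT none was called in MEFs or at D3. At an unadjusted p under 0.05 there were 4 in MEFs (1340 of 13953 genes) and 3 at D3 (1020 of 16031 genes). At D5 10 were higher (4.72% of all genes), and at D7 12 were higher and 2 lower (13.1% and 15.7%). In iPSCs 4 were lower (6.63%) and in ESCs 5 were higher (5.69%). At D7 the median log2FC was 0.29, Trim28 differed by 0.51 (SE 0.06, FDR 8.6e-14), and Zfp57, a KRAB zinc finger gene that guards imprinted loci, by 1.23 (SE 0.23, FDR 2.4e-06). Chd3, a chromatin remodeller, differed by -0.99 (SE 0.20, FDR 8.8e-06).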

How the data were processed

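RNA-seq was measured in 36 libraries made with a stranded kit and read as single 75-base reads. Per the labels and the methods of the study, the authors trimmed reads (Cutadapt), aligned them to GRCm38 (STAR) and counted them per gene (Rsubread). The annotation release, the strand setting and the treatment of reads with several matches are not given in the sources used here. The deposited table holds raw counts per gene, and the deposited normalised signal is these counts divided by 1 median-ratio size factor per library (largest relative difference from factors computed here 5e-15). The tables the authors deposited for KO against WT (log2 fold changes, p-values and FDR) and the batch-corrected log matrix were not used, apart from gene symbols. The study's methods name library preparation dates as batches, which the labels do not give.

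Members were found by symbol. The members and lists were chosen with earlier results of these data known. Counts were fitted with DESeq2 1.42.0 in R 4.3.3, as 1 factor of 12 groups over all 36 libraries, with the Wald test and Benjamini-Hochberg adjustment over all genes tested (independent filtering on). A call is FDR < 0.05, and a DEG also has log2FC > |1|. The test recovered known changes on data simulated from its own fitted model, in genes of higher count only. Low counts, changes smaller than those of DEGs and outlying libraries were not simulated. Alternatives were edgeR 4.0.16 (quasi-likelihood test), TMM scaling, a filter of at least 10 counts in at least 3 libraries, no independent filtering, fits of the compared groups alone, replicate blocks and leaving out each library. A count of 0 in a library allows up to 3 reads at 95% confidence, 2.31 to 5.22 normalised counts, which covers counting error only. No 2 libraries of a group agreed within sampling noise.

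Replicate numbers came from the sample titles. Deviations from the group means of same-numbered WT and KO libraries had r of 0.101 to 0.456 at D3, 0.0897 to 0.268 at D5 and 0.172 to 0.392 at D7. Differently numbered libraries reached at most 0.126 at D3, 0.016 at D5 and -0.00933 at D7. The numbers thus pair libraries at D5 and D7. At D3 they do so in part, as WT replicate 2 was nearer to KO replicate 3 (0.126) than to KO replicate 2 (0.101). They do not at the other stages (lowest same-numbered r -0.0248 in MEFs, -0.142 in iPSCs and -0.0275 in ESCs).

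Positions, exons, proteins and transcript windows came from GENCODE M21 (GRCm38), in which all 62 members were found by gene ID, and promoters from RefSeq on GRCm38.p6. Finger counts are matches to the C2H2 spacing in the longest annotated protein. Genes named were members called in a KO against WT comparison, with all libraries given for DEGs, the 6 largest increases and decreases among DEGs of WT ESCs against MEFs, the 3 highest and lowest levels per kilobase, members under 5 normalised counts, Zfp266 and cluster neighbours of DEGs. Other genes named were chosen after their values were seen.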

Additional observations from a re-analysis of the deposited data

Results flagged for a closer look

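The difference between KO and WT cells was not the same at D7 and D3 in 12 of 61 members by the test of the difference itself (DESeq2 interaction contrast, FDR < 0.05), which called 13.4% of all genes. The log2 difference of differences was 2.35 in Zfp936, 1.23 in Zfp980, 1.21 in Zfp982, 1.11 in Zfp986, 1.08 in Zfp987, 1.03 in Zfp988, 0.813 in Zfp961, 0.757 in Zfp940, 0.569 in Zfp976 and 0.527 in Zfp975, each more positive at D7. It was -0.441 in Zfp954 and -0.534 in Zfp938. Zfp940 passed here although neither of its own differences did, with 103, 114 and 129 normalised counts in WT and 79.3, 81.5 and 94.3 in KO libraries at D3 (log2FC -0.44) and 102 to 144 in WT and 132 to 183 in KO libraries at D7 (log2FC 0.32). Dixon's test for a single outlying library was not applied to groups of 3.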

How the results depend on the processing

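Over 7 kinds of alternative, no member called in a KO against WT comparison or in the test of D7 against D3 changed direction. Nor did the 8 DEGs named for WT ESCs against WT MEFs. The direction of members named elsewhere was not followed. At D7, 18 of the 22 called members kept the call under each of 12 alternatives. When any one library was left out, 19 to 22 were called (24.4% to 28.2% of all genes). Of the 12 differences between D7 and D3, 3 kept the call throughout. There were 7 called by edgeR (6.86% of all genes against 13.4%) and 6 to 14 over left-out libraries (8.84% to 13.8%). In ESCs, 16 members were called with the ESC libraries fitted alone, where the share of all genes called rose from 9.86% to 15.2%. With one library left out 3 to 5 were called (4.93% to 11.2%). In iPSCs, 1 was called by edgeR (14.6% of all genes), and 1 to 7 with one left out (9.28% to 20.2%). With the iPSC libraries fitted alone 0 were called, where the share of all genes fell from 16.3% to 3.25%. In MEFs the range over left-out libraries was 0 to 1 (0.014% to 1.04% of all genes). For WT D5 against D3 it was 4 to 8 (21.8% to 26%), and for D7 against D5 7 to 14 (18% to 21.5%). For ESCs against iPSCs it was 0 to 4 (0.194% to 11.8%). For the KO effect in iPSCs against that in ESCs it was 0 to 1 (0.765% to 3.54%). The causes of these changes were not tested.

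With the replicate numbers as a block, 1 member was called in MEFs (0.388% of all genes) and 6 in iPSCs (18.5%). At these stages the libraries share only a number. At D7, where the numbers pair the libraries, the block gave 21 calls (31.6%) and lost Zfp951. Among the differences between D7 and D3 the block kept 11 of the 12 calls and lost Zfp938. At D3 it gave 0 calls, as did the fit without it. Depth limits the MEF values of the 6 genes with the largest ESC increase, which had 10 to 35 reads over 3 WT libraries.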
